A study of Canis lupus familiaris with 45 samples.

Results

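The proteasome genes were followed in the left ventricle of dogs during heart failure induced by rapid pacing. Members were all probe sets that the array annotation gave to a single gene whose symbol began with PSMA, PSMB, PSMC, PSMD, PSME, PSMF or PSMG. This rule found 61 of 23836 probe sets, for 39 of 6540 gene symbols. Of the 61, 54 probe sets of 38 genes lay above the filter on low signal and were tested among 14302 probe sets. The prefix also took in 3 probe sets of PSMC3IP, a meiotic recombination factor, and PSME3IP1, a binding partner of the activator PSME3, neither of which is a proteasome subunit. They were kept as members and are described apart, which left 51 tested probe sets of proteasome genes.

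The proteasome is the protease that degrades ubiquitin-tagged proteins in the cytosol and nucleus. Its 20S core is a barrel of outer alpha rings (PSMA genes) and inner beta rings (PSMB genes), and 3 of the beta subunits cut peptide bonds. The 19S particle caps the barrel. Its base holds ATPases (PSMC genes) that unfold substrates, and its lid and other base subunits (PSMD genes) bind ubiquitin, remove it or act as scaffold. Under interferon, PSMB8, PSMB9 and PSMB10 take the places of the catalytic subunits PSMB5, PSMB6 and PSMB7 to form the immunoproteasome, and PSME1 and PSME2 form the 11S activator, both linked to the supply of peptides for MHC class I. In cardiac muscle the proteasome turns over sarcomeric and other proteins, and its part in hypertrophy and failure has been studied widely.

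The 15 dogs were male and age-matched, and formed 5 groups of 3. Day-0 dogs were unpaced controls; the labels do not say whether they carried a pacemaker. In the other groups a pacemaker was implanted by surgery, with its lead on the right ventricle, and pacing at 240 ppm began after recovery. Hearts of the Day-3 dogs were taken after 3 days of it, those of Week-1 after 1 week, those of Week-2 after 2 weeks and those of End-stage after 3 to 4 weeks, when failure had been verified by haemodynamics. Every paced dog thus also carried a recent operation, which cannot be told apart from pacing in a comparison with Day-0. Tissue through the full thickness of the left ventricle gave 3 RNA isolations per dog, each measured on 1 array, and 45 arrays in all. The dog was the replicate, and all values below are log2 of the scaled signal, averaged over the 3 arrays of a dog, unless stated otherwise.

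Arrays had median signals between 33.3 and 48.6. Cardiomyocyte markers were strongly detected, for instance ACTC1, cardiac actin, at 13.01 ± 0.35 (SD, n = 3) in Day-0. Over 200 probe sets that tell dogs apart, 4 arrays matched an array of another dog best. They were all 3 arrays of Week-1 dog 1 and 1 array of End-stage dog 1. Each matched an array of the other of these dogs. Week-1 isolation 2 and End-stage isolation 1 correlated at 0.81, and at most at -0.32 and -0.39 with arrays of their own dog. Week-1 isolation 1 was as close to its own dog, at 0.76 each. Week-1 isolation 3 correlated at 0.95 with End-stage isolation 3 and at most at 0.76 with its own dog. End-stage isolations 2 and 3 matched their own dog best, at 0.96, but reached 0.95 with another dog. The Week-1 and End-stage values of the members that the results turn on are therefore also given without both dogs. Week-1 dog 1 and End-stage dog 1 are called the doubtful dogs. Whether RNA of these dogs had been exchanged was not tested. In whole tissue, fewer cells of a type and less RNA per cell cannot be told apart.

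Not every subunit could be described. Probe sets of PSMA6 (1591488_at and 1596554_at), PSMC1 (1592822_at, its only one, at a mean signal of 9.92), PSMC3 (1595415_at and 1595416_at), PSMC4 (1592147_s_at) and PSMD10 (1593907_s_at) lay below the signal filter, with mean signals from 2.27 to 13.9. The catalytic subunits PSMB6, PSMB7 and PSMB10, the base subunit PSMD1, the ubiquitin receptor PSMD4, the lid subunits PSMD6 and PSMD13, the chaperones PSMG1 and PSMG4 and the tissue-restricted PSMA8 and PSMB11 were not analysed here. The immunoproteasome was therefore seen through PSMB8 (3 probe sets), PSMB9 (1), PSME1 (1) and PSME2 (3), and its constitutive counterparts through PSMB5 alone (2).

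Proteasome transcripts differed little between the time groups, and no member passed the threshold in any comparison (limma, Benjamini-Hochberg adjusted p under 0.05 over all probe sets tested). Against Day-0, 0 of 54 members were called at Day-3, where 0% of all probe sets were called. At Week-1 the members called were 0 (0.028% of all), at Week-2 0 (0.0839% of all) and at End-stage 0 (0.014% of all). With the 4 paced groups averaged, 0 members and 0.301% of all probe sets were called. Between consecutive paced groups, and in the F test for any difference among the 5 groups, 0 members and 0% of all probe sets were called (2 members with an unadjusted p under 0.05 in the F test, beside 7.37% of all). The smallest adjusted p of a member was 0.212, for PSMA6 in the average of the paced groups.

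At an unadjusted p under 0.05, members differing from Day-0 were no more frequent than other probe sets. They were 1 higher and 2 lower at Day-3 (3.72% and 4.35% of all probe sets), 1 higher and 2 lower at Week-1 (3.9% and 5.1%), 0 higher and 3 lower at Week-2 (5.03% and 6.14%), and 0 higher and 1 lower at End-stage (3.7% and 4.53%). They came from 5 genes: PSME1, PSMG2, PSMA6 and PSMA4 on the lower side and PSME4 on the higher side. With the paced groups averaged, PSME4 was higher and PSMA6, PSME1 and PSMG2 were lower at this level (1 and 3 members, beside 5.37% and 6.32% of all probe sets).

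The median member differed from Day-0 by 0.050 at Day-3, -0.076 at Week-1, -0.039 at Week-2 and -0.005 at End-stage on the log2 scale. The same medians over all probe sets tested were 0.004, -0.026, -0.005 and -0.025. The Week-2 median was 0.025 without Week-2 dog 1 and -0.077 without Week-2 dog 2. With each array centred on its median, the members' median was -0.005 at Day-3 and 0.042 at End-stage, so its sign turned in both. The members' median SD between dogs of a group was 0.16, and the spread between the isolations of 1 dog (median SD) was 0.17, against 0.27 and 0.31 over all probe sets. The members were also bright, with 27 of the 61 among the top 10% of probe sets by mean signal.

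**Figure D1:**
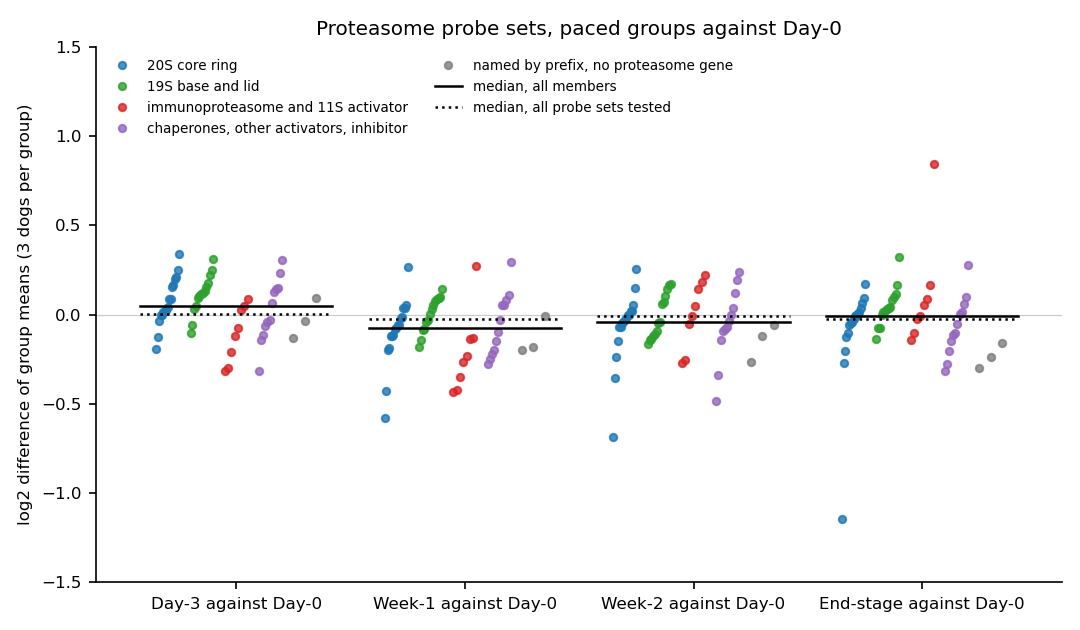
Log2 difference of group means from Day-0 (vertical axis) for each of the 54 tested members, in 4 comparisons (horizontal axis), coloured by role; each point is 1 probe set, and the solid and dotted lines are the medians of the members and of all probe sets tested. Most points lie close to 0; the lowest point at End-stage, at -1.15, is the PSMA4 probe set 1590352_x_at, and the highest, at 0.85, is PSMB9.

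How far these data limit a change can be read from the 95% intervals of the differences. Against Day-0 the interval lay wholly within a 1.5-fold change in either direction for 40 of 54 members at Day-3, 40 at Week-1, 42 at Week-2 and 45 at End-stage. The shares of all probe sets tested, which were dimmer on average, were 40.1%, 39.1%, 38.6% and 39.9%. It lay within a 2-fold change for 53, 52, 51 and 52 members. In all 4 comparisons 34 members stayed within 1.5-fold. The wider intervals belonged to 20 probe sets, among them all 3 of PSMB8, the only one of PSMB9, both of PSMD9 and 2 of 3 of PSME2 and PSME4. A 1.5-fold change thus lay inside an interval of each of the 4 immunoproteasome catalytic probe sets, while it lay outside the interval in all 4 comparisons for 13 of 17 probe sets of the 20S core ring and 12 of 14 of the 19S base and lid.

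In the 20S core ring, the alpha and beta subunits without the immunoproteasome, the median of 17 probe sets was 0.04 at Day-3, -0.07 at Week-1, -0.03 at Week-2 and -0.03 at End-stage. PSMA7, PSMA1, PSMA2, PSMB1, PSMB2 and PSMB4 stayed between -0.12 and 0.17 in all 4 comparisons, as did PSMA5 between -0.07 and 0.16 and PSMB3 between -0.15 and 0.02. PSMB5, the constitutive chymotrypsin-like catalytic subunit, had log2 signals in probe set 1589711_s_at of 11.02, 11.15 and 11.06 in the Day-0 dogs and 10.85, 10.98 and 10.84 in the Week-1 dogs. These groups did not overlap, and the difference was -0.19 (SE 0.15, adjusted p = 0.798), or -0.17 without both doubtful dogs. It was -0.24 at Week-2 and -0.10 at End-stage, while the other PSMB5 probe set, 1592934_s_at, stayed between -0.02 and 0.04.

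PSMA6, an alpha ring subunit, gave the lowest p of the members against Day-0. In probe set 1585787_at, the Day-0 dogs lay at 9.78, 9.85 and 9.92 and the Day-3 dogs at 9.42, 9.85 and 9.70. The Week-1 dogs lay at 9.39, 9.43 and 9.44, the Week-2 dogs at 9.28, 9.59 and 9.62 and the End-stage dogs at 9.40, 9.70 and 9.63. The Week-1, Week-2 and End-stage dogs all lay below the lowest Day-0 dog, and the Day-3 dogs overlapped Day-0. The differences were -0.43 at Week-1 (SE 0.13, adjusted p = 0.29), -0.36 at Week-2 (adjusted p = 0.321) and -0.27 at End-stage (adjusted p = 0.629). With the 45 arrays fitted separately and the dog as a random block, the Week-1 difference passed the threshold (adjusted p = 0.018). That fit takes 1 correlation between the arrays of a dog for all probe sets. Its p values can be too low where dogs differ more, relative to isolations, than in most probe sets. In 1585787_at the SDs between dogs and between isolations were 0.15 and 0.14, against medians of 0.27 and 0.31 over all probe sets. The differences were -0.41 at Week-1 and -0.19 at End-stage without both doubtful dogs. The other PSMA6 probe sets above the filter followed only in part. Probe set 1603809_at differed by -0.20 at Week-1 and 0.02 at Week-2, and 1603810_x_at by 0.06 and 0.25. At End-stage the 3 probe sets lay between -0.27 and -0.03.

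PSMA4, another alpha ring subunit, showed the lowest value of any member, and only in 1 of its 2 probe sets. In 1590352_x_at the Day-0 dogs lay at 8.76, 9.43 and 8.82 and the End-stage dogs at 8.17, 7.90 and 7.50. These groups did not overlap, and the difference was -1.15 (SE 0.36, adjusted p = 0.318), or 2.21-fold lower. It was -1.30 without both doubtful dogs. In 1597269_s_at the same groups lay at 9.81 ± 0.05 and 9.81 ± 0.17 (SD, n = 3 each), and no paced group differed from Day-0 by more than 0.05.

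The RNA isolations of single dogs disagreed in the first of these probe sets. Its SD between isolations of a dog was 0.89, against 0.11 in 1597269_s_at, and in 10 of 15 dogs the 3 arrays spanned more than 1 log2 unit, against 0 dogs. Over the 45 arrays it ranged from 6.31 to 9.90, the other from 9.44 to 10.18. Of 2919 tested probe sets at least as bright on average, this one included, 5 had an SD between isolations at least as high, itself among them. The suffix _x_at marks a probe set whose probes can also match other transcripts; whether this moved the values was not tested.

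**Figure D2:**
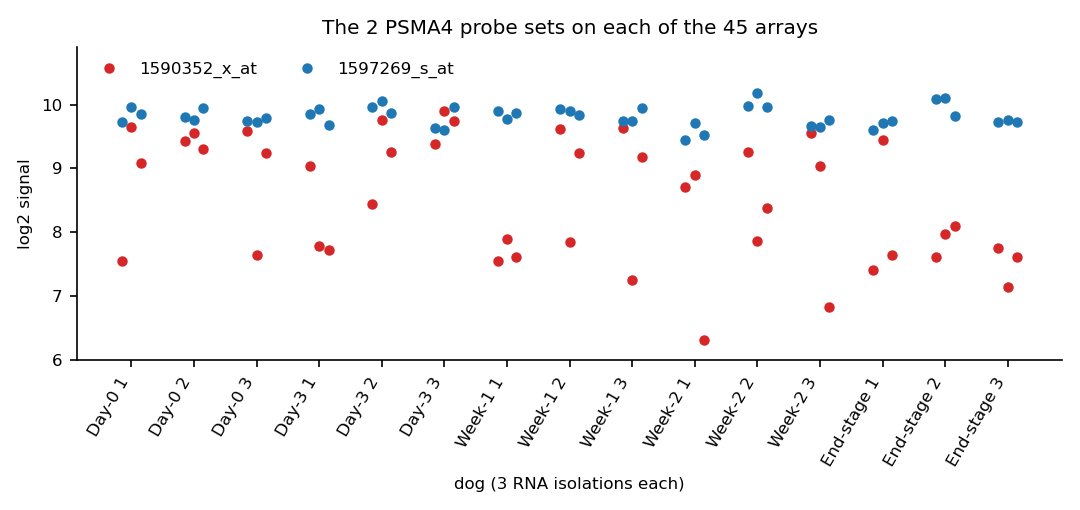
Log2 signal (vertical axis) of the 2 PSMA4 probe sets on each of the 45 arrays, arranged by dog (horizontal axis, 3 RNA isolations per dog). Probe set 1597269_s_at stays between 9.44 and 10.18, while 1590352_x_at ranges from 6.31 to 9.90 and jumps between isolations of the same dog.

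Most 19S probe sets lay above Day-0 at Day-3. Over the 14 tested probe sets of its base and lid the median difference from Day-0 was 0.12 at Day-3, with 12 of the 14 above 0 (50.8% of all probe sets), then 0.02 at Week-1, -0.04 at Week-2 and 0.03 at End-stage. Dogs of Day-3 and Day-0 did not overlap in 6 members on the higher side and 2 on the lower side, beside 6.16% and 6.44% of all probe sets, and with arrays centred on their medians the higher side held 2. Of the 6, 4 were 19S subunits, namely PSMD2, a scaffold of the base, and the lid subunits PSMD3, PSMD8 and PSMD11, and the others were alpha ring subunits (PSMA3 and PSMA6 1603809_at).

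PSMD2 lay at 10.09, 10.24 and 10.26 in the Day-0 dogs and at 10.48, 10.55 and 10.32 in the Day-3 dogs. All Day-3 dogs were above the highest Day-0 dog, and the difference was 0.25 (SE 0.12, adjusted p = 0.63). It stayed above 0 in the later groups, at 0.08, 0.11 and 0.17. PSMD3 lay at 8.08, 7.83 and 7.73 in Day-0 and at 8.19, 8.30 and 8.09 in Day-3, a difference of 0.31 (SE 0.20, adjusted p = 0.794). PSMD14, the deubiquitinase of the lid, differed from Day-0 by 0.12, -0.04, -0.09 and 0.08 in the 4 groups in order of pacing time. None of these differences passed the threshold. PSMD8 and PSMD11 lay between -0.12 and 0.22 in the 4 comparisons, PSMC2 between -0.18 and 0.17, and PSMC3, PSMC4, PSMC5, PSMC6, PSMD7 and PSMD12 between -0.17 and 0.16.

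From Day-3 to Week-1 most proteasome probe sets pointed down. Of 54 members 39 lay below 0, and the median was -0.14, with 15 above it, where the median of all probe sets tested was -0.03 and 44.2% of them lay above 0. The median was -0.15 for the 20S core ring and -0.15 for the 19S base and lid. The 3 Week-1 dogs lay below all Day-3 dogs in 11 members and above them in 2, beside 5.63% and 3.68% of all probe sets. The 11 were PSMA2, PSMA3, PSMA6 (1603810_x_at), PSMB1, PSMB2, PSMC2, PSMC4, PSMD8, PSMD11 (1587350_at) and PSMB8 (1583632_s_at and 1585408_at), with differences from -0.13 to -0.52. The 2 above were PSMC3 and PSMF1, at 0.11 and 0.12.

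No member passed the threshold in this comparison, and 4 had an unadjusted p under 0.05, all lower (2.82% of all probe sets, beside 2% higher). In PSMC2, a 19S ATPase (1591564_at), the Day-3 dogs lay at 9.99, 9.97 and 9.89 and the Week-1 dogs at 9.69, 9.74 and 9.56, a difference of -0.29 (SE 0.11, adjusted p = 0.984). The other PSMC2 probe set, 1590974_s_at, differed by -0.10. PSMA3 (1584430_s_at) lay at 9.64, 9.77 and 9.61 in Day-3 and at 9.08, 9.23 and 9.60 in Week-1, a difference of -0.37 (SE 0.17, adjusted p = 0.994). Without both doubtful dogs, PSMC2 gave -0.30 and PSMA3 -0.25.

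The median was the same without both doubtful dogs, at -0.14. On the lower side 17 members then did not overlap, and 1 had an unadjusted p under 0.05. With fewer dogs in a group, non-overlap is more frequent in any probe set. The shares of all probe sets were not counted in this setting, nor in the settings that follow. Dogs with the same number deviated together in these groups, and with the dog number as a block 7 members had an unadjusted p under 0.05 on the lower side and 0 an adjusted one. The step depended on scaling. With each array centred on its median the members' median was -0.051, 2 members did not overlap on the lower side, and the median of all probe sets moved from -0.03 to 0.06. The members' median lay -0.11 from that of all probe sets. Centring cannot change this distance, because it shifts all probe sets of an array alike. After quantile normalisation the distance was -0.13.

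**Figure D3:**
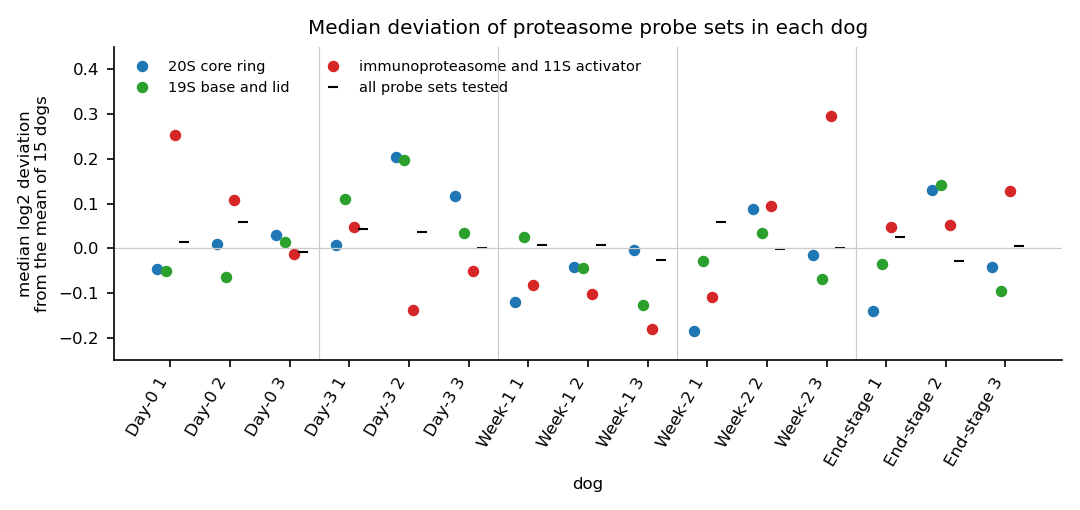
Median log2 deviation of proteasome probe sets from their mean over the 15 dogs (vertical axis) in each dog (horizontal axis), for the 20S core ring (17 probe sets), the 19S base and lid (14), the immunoproteasome and 11S activator (8) and all probe sets tested. The core ring of the Day-3 dogs lies at 0.007, 0.20 and 0.12 and that of the Week-1 dogs at -0.12, -0.041 and -0.003.

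Among the interferon-inducible subunits, PSMB8, the chymotrypsin-like subunit of the immunoproteasome, was lowest in Week-1 in all 3 of its probe sets. In 1583632_s_at the Day-0 dogs lay at 6.82, 6.42 and 6.40 and the Day-3 dogs at 6.88, 6.76 and 6.26. The Week-1 dogs lay at 6.22, 5.89 and 6.25, the Week-2 dogs at 6.27, 6.93 and 6.87 and the End-stage dogs at 6.52, 6.42 and 6.96. The 3 Week-1 dogs were below every dog of the other groups, by a small margin. After quantile normalisation Week-1 dog 3, at 6.29, lay above Day-3 dog 3 at 6.26 and Week-2 dog 1 at 6.17.

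The Week-1 mean of PSMB8 differed from Day-0 by -0.43 (SE 0.23, adjusted p = 0.616) and from Day-3 by -0.52 (adjusted p = 0.994), and Week-2 lay 0.58 above Week-1 (adjusted p = 0.834). Probe sets 1585408_at and 1586908_s_at gave -0.35 and -0.42 at Week-1 against Day-0, and 0.40 and 0.61 for Week-2 against Week-1. In the first of them the Week-1 dogs lay at 5.38, 5.28 and 5.51, just under the lowest Day-0 dog at 5.52. After quantile normalisation Week-1 dog 3, at 5.61, lay above Day-0 dog 3 at 5.58. In 1586908_s_at the groups overlapped, with Week-1 dogs at 4.85, 5.59 and 4.96 and Day-0 dogs at 5.42, 5.73 and 5.52. Week-2 and End-stage means lay within 0.18 of Day-0 in all 3 probe sets. Without both doubtful dogs the difference of 1583632_s_at was -0.48 from Day-0 and -0.57 from Day-3, and that of 1586908_s_at from Day-0 was -0.28.

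Marker genes of other cell types were summed in the same dogs. Endothelial markers summed to a linear signal of 7535 to 7920 in the Week-1 dogs against 8430 to 9568 in Day-0 and 9435 to 9904 in Week-2 (15 of 19 probe sets of 6 genes above the filter, of which 2 were above 0 at Week-1). The sum of macrophage and leukocyte markers was 2930 to 3752 in Week-1 and 2516 to 3162 in Day-0, with 19 of 23 probe sets above the filter and AIF1, CD8A and FCER1G below it. Smooth muscle and pericyte markers summed to 14445 to 18629 in Week-1 and 17098 to 19833 in Day-0. Of their 12 probe sets above the filter, 2 were above 0 at Week-1. Cardiomyocyte and fibroblast sums of Week-1 overlapped those of Day-0. The part of these markers in the PSMB8 values was not tested.

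PSMB9, the partner of PSMB8, was 0.27 above Day-0 at Week-1 and varied most between dogs among the immunoproteasome probe sets (SD 0.64). Its Day-0 dogs lay at 8.05, 7.38 and 5.73 and its Day-3 dogs at 6.43, 6.57 and 7.27. The Week-1 dogs lay at 7.21, 7.35 and 7.43, the Week-2 dogs at 6.88, 7.44 and 7.51 and the End-stage dogs at 7.34, 7.95 and 8.41. Day-0 alone spanned nearly the whole range, so that every paced group overlapped it. The End-stage difference was 0.85 (SE 0.44, adjusted p = 0.674). It was 0.18 without Day-0 dog 3, 1.34 without Day-0 dog 1 and 1.12 without both doubtful dogs.

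In the RefSeq gene order of the dog assembly UU_Cfam_GSD_1.0, PSMB8 and PSMB9 alternate with TAP2 and TAP1, the subunits of the transporter that carries peptides into the endoplasmic reticulum. TAP1 lay at 6.70, 6.62 and 6.53 in Day-0, at 6.39, 6.44 and 6.13 in Week-1 and at 6.51, 6.93 and 6.77 in Week-2. Its Week-1 dogs were below all Day-0 dogs, as for PSMB8 in 1583632_s_at. The TAP1 difference was -0.30 (SE 0.20, adjusted p = 0.739), or -0.33 without both doubtful dogs. TAP2 differed from Day-0 by 0.16 at Week-1 and 0.59 at Week-2 (adjusted p = 0.944 and 0.521). None of the 4 neighbours passed the threshold, and differences between their profiles were not tested.

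**Figure D4:**
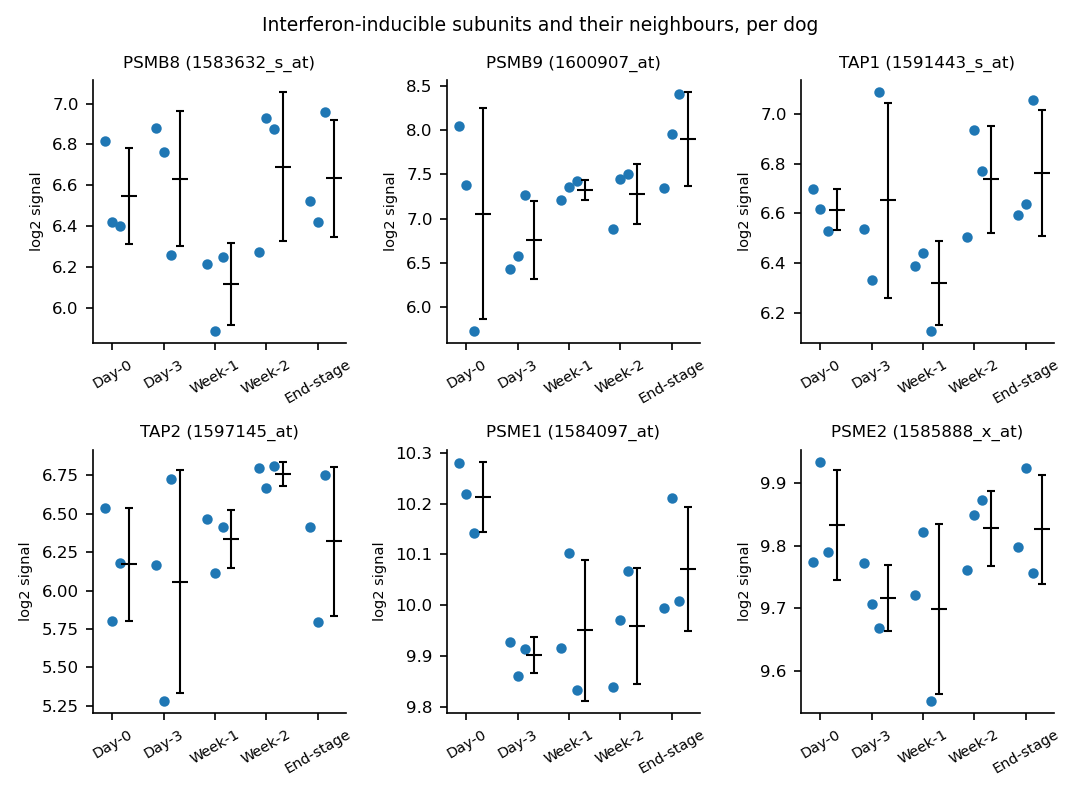
Log2 signal (vertical axis) of PSMB8, PSMB9, TAP1, TAP2, PSME1 and PSME2 in each dog, by group (horizontal axis); points are dogs, and the bars beside them show the mean and SD of 3 dogs. PSMB8 is lowest in Week-1 (6.12 ± 0.20 against 6.55 ± 0.23 in Day-0), PSME1 is highest in Day-0 (10.21 ± 0.07), and PSMB9 spans 5.73 to 8.05 within Day-0.

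PSME1, the alpha subunit of the 11S activator, had its highest mean in the unpaced dogs. The Day-0 dogs lay at 10.28, 10.22 and 10.14, the Day-3 dogs at 9.93, 9.86 and 9.91 and the Week-1 dogs at 9.92, 10.10 and 9.83. The Week-2 dogs lay at 9.84, 9.97 and 10.07 and the End-stage dogs at 9.99, 10.21 and 10.01. No dog of Day-3, Week-1 or Week-2 reached the lowest Day-0 dog, while End-stage dog 2 did.

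The PSME1 differences were -0.31 at Day-3 (SE 0.11, adjusted p = 0.44), -0.26 at Week-1 (adjusted p = 0.476), -0.26 at Week-2 (adjusted p = 0.386) and -0.14 at End-stage (adjusted p = 0.828). Without both doubtful dogs they were -0.25 at Week-1 and -0.10 at End-stage. The largest amounts to a signal 1.24-fold lower. Averaged over the paced groups the difference was -0.24 (SE 0.09, adjusted p = 0.243, and 0.038 with the 45 arrays fitted separately and the dog as a random block). Over all alternatives tried for that average, it stayed between -0.28 and -0.21.

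PSME2, the beta subunit, is the second gene after PSME1 in the RefSeq order, with EMC9 between them. Its probe set 1585888_x_at lay at 9.77, 9.93 and 9.79 in Day-0 and at 9.77, 9.71 and 9.67 in Day-3. The Day-3 dogs were just below the Day-0 dogs, by -0.12 (SE 0.10, adjusted p = 0.878), and the Week-1 difference was -0.13. At Week-2 and End-stage it was -0.01 and -0.01. The probe sets 1583342_x_at and 1592017_s_at gave -0.21 and -0.08 at Day-3, with SEs of 0.26 and 0.32.

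PSME1 and PSME2 (1585888_x_at) varied together over the 15 dogs. Pearson's r was 0.70 (permutation p = 0.00304) and Spearman's rho 0.76 (permutation p = 0.00184). Among 28 pairs of interferon-inducible probe sets, 22 of them between different genes, this was the only pair of different genes past the threshold (permutation test with 100000 resamples, adjusted p = 0.0426 for r and 0.0258 for rho). On deviations from the group means r was 0.76 (permutation p = 0.00124, adjusted p = 0.0347). These p values are likely too low, because the permutation treated deviations tied by their group means as independent. Without the 2 dogs farthest from the PSME1 median, r of the log2 signals was 0.77. After quantile normalisation r was 0.65 and the adjusted permutation p 0.115. The other PSME2 probe sets did not follow PSME1 in this way. Their r was 0.33 in 1583342_x_at (permutation p = 0.24) and -0.04 in 1592017_s_at (permutation p = 0.90). The correlations were not computed without both doubtful dogs. PSMB8 and PSMB9 showed an r of 0.18 (permutation p = 0.53).

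Of the other activators, PSME4, the large activator PA200, was the only member above Day-0 at an unadjusted p under 0.05. In probe set 1604488_at the Day-0 dogs lay at 8.48, 8.79 and 9.02 and the Day-3 dogs at 8.95, 9.14 and 9.12. The Week-1 dogs lay at 9.09, 8.86 and 9.23, the Week-2 dogs at 8.96, 9.08 and 8.98 and the End-stage dogs at 9.08, 9.06 and 8.98. Day-0 dogs 1 and 2 lay below all paced dogs, and Day-0 dog 3 lay among them.

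PSME4 differed from Day-0 by 0.31, 0.30, 0.24 and 0.28 in order of pacing time (SE 0.14, adjusted p from 0.543 to 0.645), and by 0.28 at Week-1 and 0.26 at End-stage without both doubtful dogs. The average over the paced groups was 0.28 (adjusted p = 0.298, and 0.042 with the dog as a random block on 45 arrays) and ranged from 0.14 to 0.41 over the alternatives. In 1604488_at the SD between dogs was 0.16 and between isolations 0.13, so the p over arrays can be too low. The PSME4 probe sets 1604324_at and 1604262_at gave 0.10 and -0.27 at End-stage. PSME3, a nuclear activator, differed by -0.14 at Week-2 and -0.15 at End-stage (SE 0.10), and PSMF1, the inhibitor PI31, stayed between -0.06 and 0.06.

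Among the assembly chaperones, PSMG2, which helps to build the alpha ring, had its highest mean in Day-0. The Day-0 dogs lay at 10.17, 10.18 and 10.05, the Day-3 dogs at 10.07, 9.58 and 9.81 and the Week-1 dogs at 9.92, 9.85 and 9.88. The Week-2 dogs lay at 9.86, 9.81 and 9.73 and the End-stage dogs at 10.01, 9.70 and 10.08. Week-1 and Week-2 dogs did not overlap Day-0, and Day-3 and End-stage dogs did.

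The PSMG2 differences were -0.31, -0.25, -0.34 and -0.20 (SE 0.13, adjusted p from 0.347 to 0.779), with -0.27 at Week-1 and -0.24 at End-stage without both doubtful dogs. The Week-2 difference passed the threshold with the 45 arrays fitted separately and the dog as a random block (adjusted p = 0.023). So did the average over the paced groups, at -0.27 (adjusted p = 0.29 over dogs and 0.013 over arrays). In PSMG2 the SD between dogs was 0.15 and between isolations 0.10, so these p values over arrays can be too low. PSMG3, a chaperone of the same step, gave -0.03, -0.22, 0.12 and -0.11. The chaperones of the 19S base had no common sign: PSMD9, for instance, gave 0.20 in 1585328_at and -0.49 in 1602888_at at Week-2, and PSMD5 and PSMD10 stayed between -0.15 and 0.15 in the 4 comparisons. Of the genes that carry the prefix without being subunits, PSMC3IP lay between -0.30 and -0.12 and PSME3IP1 between -0.27 and 0.10.

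**Figure D5:**
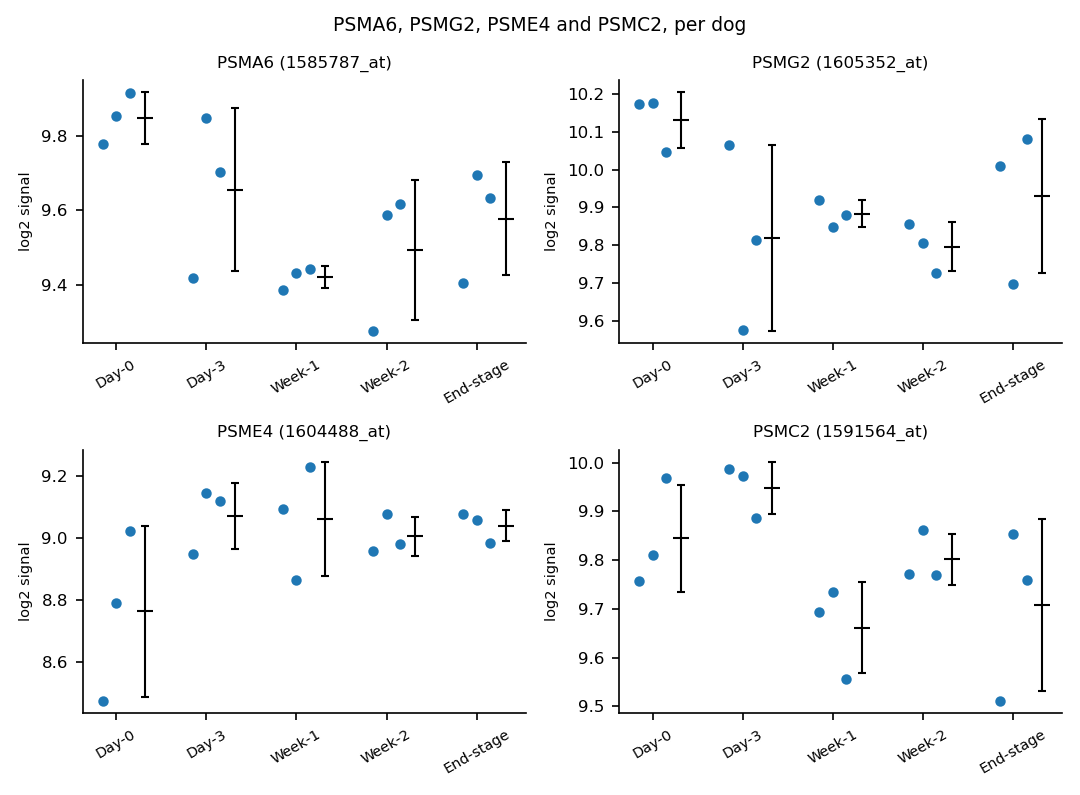
Log2 signal (vertical axis) of PSMA6, PSMG2, PSME4 and PSMC2 in each dog, by group (horizontal axis); points are dogs, and the bars beside them show the mean and SD of 3 dogs. PSMA6 lies at 9.85 ± 0.07 in Day-0 and 9.42 ± 0.03 in Week-1, PSMG2 at 10.13 ± 0.07 in Day-0 and 9.80 ± 0.07 in Week-2, and PSME4 at 8.76 ± 0.27 in Day-0, with the highest paced mean, 9.07, in Day-3; none passed the threshold over dogs.

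Counts of members whose dogs did not overlap with Day-0 in the later groups were 0 higher and 7 lower at Week-1 (6.73% and 9.4% of all probe sets), 2 higher and 7 lower at Week-2 (8.08% and 9.21%) and 0 higher and 2 lower at End-stage (6.33% and 7.94%). Without both doubtful dogs they were 0 and 8 at Week-1 and 2 and 4 at End-stage. The shares of all probe sets were not counted there, and with fewer dogs in a group non-overlap is more frequent in any probe set. Week-1, Week-2 and End-stage share the Day-0 dogs, so these counts are not independent. The lower ones at Week-1 were PSMA6, PSMB5, PSMB8 (2 probe sets), PSMC2, PSME1 and PSMG2. Week-2 against Week-1 gave 5 higher and 3 lower (6.01% and 5.2%), and End-stage against Week-2 gave 0 and 0 (3.88% and 5.4%). At an unadjusted p under 0.05 these 2 comparisons held 2 higher members (3.12% of all probe sets, beside 2.66% lower), both of PSMB8, and 0 members (1.89% higher and 2.3% lower), respectively.

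The dog number, which the labels repeat in every group without saying what it marks, went with the level of several 20S core subunits. The median deviation of the core ring was lowest in the dog numbered 1 in all 5 groups, at -0.047, 0.007, -0.12, -0.184 and -0.139 from Day-0 to End-stage. PSMB3, a structural beta subunit, lay at 9.40, 9.34, 9.20, 9.01 and 9.10 in the dogs numbered 1 and at 9.45 or above in all others. UBB, a polyubiquitin gene, lay at 12.72, 12.68, 12.71, 12.58 and 12.67 in the dogs numbered 1 and at 13.01 or above in the others.

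This pattern was noticed in the values and then tested on the same dogs, in a limma fit with group and number. PSMB3 was past the threshold for number (adjusted p = 0.0316), 1 of 54 members beside 4.24% of all probe sets tested. At an unadjusted p under 0.05 there were 11 members (20.4%) beside 18.7% of all probe sets, and 8 of them were among the 17 of the core ring. The dog numbered 1 was lowest in 4 or 5 groups in 8 of these 17 probe sets, against 8.22% of all probe sets. These were not the same 8 as those with a low p. PSMB1 had an F test p of 0.0073 with the dog numbered 1 lowest in 2 groups, and PSMA2 a p of 0.073 with it lowest in 4. Without both doubtful dogs, 0 members were past the adjusted threshold and 7 had an unadjusted p under 0.05. Litter, handling day and other factors that a number could mark were not tested.

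The genes around the proteasome, taken from 8 lists, also had 0 probe sets past the adjusted threshold in any comparison, and those with an unadjusted p under 0.05 are counted here. Ubiquitin itself (UBB and RPS27A) had a list median between -0.03 and 0.02 against Day-0. Of 13 probe sets of muscle ubiquitin ligases, 2 were lower and 0 higher at Day-3 (4.35% and 3.72% of all probe sets). RNF207 lay at 5.73, 5.43 and 5.33 in Day-0 and at 4.91, 3.78 and 4.79 in Day-3, a difference of -1.01 (SE 0.30, adjusted p = 0.348). It was 0.18 at Week-1, -0.99 at Week-2 and -0.43 at End-stage. RNF207 was dim, with a mean signal of 33.1 where the filter lay at 22.8. ASB2, which targets filamins, differed by -0.79, -0.54, -0.66 and -0.64 in order of pacing time, and FBXO32, the atrophy ligase atrogin-1, by 0.07, -0.21, -0.18 and -0.24.

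VCP, the ATPase that extracts ubiquitinated proteins for the proteasome, was above Day-0 at Day-3 in all 3 of its probe sets above the filter. The differences were 0.53 in 1584456_at (SE 0.16, adjusted p = 0.348), 0.34 in 1591742_at and 0.45 in 1602491_at. At Week-2 they were -0.03, -0.03 and 0.15. The list median of the p97 group at Day-3 was 0.30, over 10 probe sets of 5 genes. Among the receptors and deubiquitinases of the proteasome, RAD23B was -0.76 in 1594979_at at Week-2 (adjusted p = 0.31) and 0.07 in its other probe set, and the list median was 0.12 at Day-3.

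HSF1, the heat shock transcription factor, lay at 8.66, 8.77 and 8.81 in Day-0 and at 9.13, 9.29 and 9.04 in Week-1. It was higher in every Week-1, Week-2 and End-stage dog than in every Day-0 dog, by 0.40, 0.38 and 0.40 (SE 0.12, adjusted p = 0.29, 0.235 and 0.316), and by 0.41 at Week-1 and 0.44 at End-stage without both doubtful dogs. NFE2L1, the activator of proteasome genes, stayed between -0.09 and 0.11.

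Of 14 probe sets of MHC class I antigen processing, 2 were higher and 4 lower at Week-1 (3.9% and 5.1% of all probe sets), with a median of -0.24. B2M, the light chain of MHC class I, gave -0.62 in 1595551_s_at (SE 0.19, adjusted p = 0.29) and -0.50 in 1583174_at, and -0.07 in 1595552_at. These were -0.65, -0.50 and -0.24 without both doubtful dogs. CALR, a chaperone of the peptide-loading complex, was on the higher side, at 0.84 in 1606177_s_at (adjusted p = 0.254). The interferon response list had 3 higher and 0 lower of 13 at Week-1 (beside the same shares), all 3 of them probe sets of the kinase JAK1. ISG15, an interferon-induced ubiquitin-like protein, differed by 0.12, 0.45, 0.84 and 0.73 in order of pacing time (adjusted p = 0.175 at Week-2). Autophagy genes had 3 higher and 0 lower of 26 at Day-3 (3.72% and 4.35% of all probe sets), and MAP1LC3A (1583816_at) was -0.35 at Week-2 (adjusted p = 0.209).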

How the data were processed

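Left ventricular RNA of 15 dogs was measured on 45 single-colour Affymetrix arrays. Per the submitters' processing notes, the array software was GCOS 1.4 with the MAS5 algorithm. Each deposited value is a probe set's signal intensity on a linear scale, which the authors scaled so that the mean without the lowest and highest 2% was equal on every array. The RNA was amplified from oligo-dT primers, per the labels. Arrays have no depth, and the number of dogs limits precision. Gene symbols came from an array annotation of 2016.

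The mean log2 signal of a dog's 3 arrays was used. Dim probe sets, the lowest 40% by mean, were left out. Differences between group means came from limma 3.58.1 (R 4.3.3), with lmFit on the 15 dogs together and eBayes variances that follow the signal level. The code was tested on simulated data with 200 changed probe sets. Of 1.5-fold changes it called 9.5% for Week-2 against Day-0 and 21.5% for the average of the paced groups. Of 3-fold changes it called 84% and 93%. The two-sided p was adjusted over 14302 probe sets by Benjamini and Hochberg's method, with a threshold of 0.05. Groups were said not to overlap when every dog of one lay above every dog of the other.

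Members, gene lists and tests were chosen with earlier results of these data known. Values were given for the immunoproteasome, 11S and PSMB5 probe sets, for the 8 members with the smallest F test p, for the strongest non-overlapping members with an unadjusted p under 0.05, for genes whose probe sets differed in sign and for up to 3 genes of each list by F test p. PSMD2, PSMD3, PSMD14, TAP1, TAP2, FBXO32, NFE2L1 and other members were named after their values were seen. Deviations from the group means of dogs sharing a number had a Pearson correlation above 0.1 in all 3 pairs between Day-3 and Week-1 (0.167, 0.296 and 0.318), Day-3 and Week-2 (0.173, 0.166 and 0.101) and Week-2 and End-stage (0.23, 0.242 and 0.102). This pairing comes from the data and not from the labels. Correlations used permutation tests in Python 3.11.15 with numpy 2.4.6. Alternatives were no filter or 60% left out, quantile or median scaling, adding 16 to the signal, medians of arrays, a random block for the dog over 45 arrays, no trend of variance with signal, only the dogs compared, the dog number as a block, leaving out each dog or isolation, and 1 probe set per gene.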

Additional observations from a re-analysis of the deposited data

How the results depend on the processing

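The count of members past the adjusted threshold stayed 0 in every comparison under all alternatives but one. With the 45 arrays fitted separately and the dog as a random block it was 1 at Week-1 (PSMA6), 1 at Week-2 (PSMG2) and 4 for the average of the paced groups (PSMA6, PSME1, PSME4 and PSMG2). The p values of that fit can be too low, as said above for PSMA6, PSME4 and PSMG2. With the dog number as a replicate block the count stayed 0 in every comparison. Members with an unadjusted p under 0.05 were then 3 higher at Day-3 in place of 1 and 5 lower at Week-2 in place of 3. From Day-3 to Week-1, 7 were lower in place of 4. Shares of all probe sets were not counted under the alternatives, so these member counts have none beside them. Centring each array on its median moved the members' median to -0.12 for Week-2 against Day-0, -0.051 for Week-1 against Day-3, -0.12 for Week-2 against Week-1 and 0.16 for End-stage against Week-2, and turned its sign at Day-3 (-0.005) and End-stage (0.042) against Day-0. It moved the median of all probe sets by -0.12 for Week-2 against Week-1 and 0.13 for End-stage against Week-2. Such a shift is common to all probe sets of an array, so centring cannot change the members' distance from that median. Leaving out 1 dog at a time gave a members' median of -0.077 to 0.025 at Week-2 against Day-0 and of -0.038 to 0.063 for Week-2 against Week-1, the lowest values without Week-2 dog 2 and the highest without Week-2 dog 1. Of the correlations among interferon-inducible probe sets, 2 pairs passed the threshold, 1 on deviations from group means and 1 after quantile normalisation. On deviations the permutation p is likely too low, as said above. The cause was not tested. With 3 dogs per group, the median SE of a member against Day-0 was 0.14 on the log2 scale.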

Other observations

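The results of the test for any difference among dog numbers, in the 20S core and in UBB, moved with the processing. For the number of the dog, UBB had an adjusted p of 0.00193 in the limma fit with group and number, 0.0141 with arrays centred on their medians, 0.0597 without Week-1 dog 1 and End-stage dog 1, and 0.862 after quantile normalisation. PSMB3 had an adjusted p of 0.0316, and 0.0338, 0.113 and 0.31 after quantile normalisation, with arrays centred and without those dogs. The count of core ring probe sets with an unadjusted p under 0.05 was 8, and 8, 6 and 6 under these alternatives, which were chosen after seeing the data.

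Probe sets that carried a PSM symbol together with another symbol were no members. There were 4, and none passed the threshold against Day-0. The probe set shared by LOC607261 and PSMA3 gave -0.52 at Week-1 (adjusted p = 0.29) and -0.53 at End-stage (adjusted p = 0.291), and the one shared by PSMD4 and PIP5K1A gave 0.21 at Day-3 (adjusted p = 0.844).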
